A study of Mus musculus with 52 samples.

Results

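The regions described here are the stretches of accessible chromatin that were found in every endothelial cell (EC) sample of the study, called common peaks below. ATAC-seq, in which a transposase cuts DNA that is not packed in nucleosomes, was carried out on about 50000 sorted cells per library from cerebellum, anterior pituitary and posterior pituitary of adult male mice, with 2 libraries for each tissue and genotype and 12 in all. A region of WT cerebellum replicate 1 was taken when its fold enrichment over local background was above 2 and its -log10 q above 2, and it was a common peak when a peak that passed the same limits overlapped it by at least 1 bp in each of the other 11 libraries. Of 26394 regions of that library, 13898 were common peaks and 12496 were missing from at least 1 other library. The members were therefore chosen by presence and height in these same libraries, and their presence and their height against other regions are given as a description, with no test.

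The WT animals had the Tie2-GFP transgene and no other. Those called beta-catenin stabilized had Tie2-GFP together with Pdgfb-CreER and BcatEx3fl, an allele whose exon 3 is removed by Cre so that beta-catenin is no longer degraded, and they received 4-hydroxytamoxifen (4HT) as pups. GFP-positive cells were sorted, so the cells are those in which the Tie2 promoter drives GFP, while recombination follows the Pdgfb promoter, and each pituitary replicate was a pool of animals. Because the Cre transgene and 4HT were given only to the stabilized mice, their part and that of beta-catenin in a difference cannot be told apart. RNA-seq of GFP-positive and GFP-negative cells from the same 6 tissue and genotype groups, again with 2 libraries each, gave the level of the genes at common peaks. ECs of the cerebellum form the blood-brain barrier, those of the posterior pituitary are fenestrated and leaky and belong to a circumventricular organ, and those of the anterior pituitary are fenestrated endocrine vessels outside the brain.

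Accessible regions of a genome fall into promoters, which lie at the starts of genes and are open in most cell types where the gene can be used, and distal elements, many of which are enhancers and are open in fewer cell types. Promoters rich in CG dinucleotides stay open widely, and they carry binding sequences of general factors such as SP, NFY, NRF1, YY1 and the CCGGAAG form of ETS sequence. ECs are specified by ETS factors such as ERG, FLI1 and ETS1, together with SOX17, GATA2 and TAL1, and AP-1 and TCF/LEF factors act at distal elements, TCF/LEF being the partners of beta-catenin in canonical Wnt signaling.

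The sequences below are examples of what common peaks held around their summits. For each gene the common peak with the most matches to the marked ETS or TCF/LEF letters was shown, so the matches were selected for. Of all distal common peaks, 30.6% held either ETS string. Each is the plus strand of the window of 100 bp on either side of the summit in WT cerebellum replicate 1, without exonic bases, from the RefSeq copy of GRCm38 (mm10), and is written in lower case with matches to the named letters in capitals. The first 4 are distal common peaks near genes of ECs, and their capitals mark the ETS letters CCGGAAG and CAGGAAG on either strand and, in the Swap70 peak, the AP-1 letters TGANTCA. They lie at -5726 bp from the start of Cdh5, the gene of VE-cadherin, at chr8:104095799-104095999, in an intron of a neighbouring transcript; at -35576 bp from the start of Kdr, the gene of the VEGF receptor VEGFR2, at chr5:76013934-76014134; in an intron around Akap2, which codes for an anchoring protein of protein kinase A, at chr4:57675509-57675709; and in an intron of Swap70, 38455 bp after its start, at chr7:110260066-110260266.
Cdh5 distal: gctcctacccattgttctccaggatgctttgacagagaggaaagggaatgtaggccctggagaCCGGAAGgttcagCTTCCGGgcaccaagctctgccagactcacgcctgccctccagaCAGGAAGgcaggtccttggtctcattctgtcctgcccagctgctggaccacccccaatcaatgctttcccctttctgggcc
Kdr distal: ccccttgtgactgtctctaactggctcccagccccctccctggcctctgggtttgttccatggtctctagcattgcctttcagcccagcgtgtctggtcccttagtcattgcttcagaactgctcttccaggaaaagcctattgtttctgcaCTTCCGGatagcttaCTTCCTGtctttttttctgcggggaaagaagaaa
Akap2 distal: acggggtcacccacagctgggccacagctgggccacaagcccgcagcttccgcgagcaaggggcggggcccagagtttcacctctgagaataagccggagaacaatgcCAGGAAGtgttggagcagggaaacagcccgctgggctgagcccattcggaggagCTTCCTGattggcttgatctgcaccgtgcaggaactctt
Swap70 distal: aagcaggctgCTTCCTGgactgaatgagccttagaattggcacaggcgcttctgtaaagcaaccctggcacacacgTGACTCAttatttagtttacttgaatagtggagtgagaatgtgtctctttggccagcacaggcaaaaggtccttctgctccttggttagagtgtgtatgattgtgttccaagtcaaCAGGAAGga

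The next sequences are common peaks at gene starts and 1 distal peak near a barrier gene. Slc38a3, a glutamine transporter of the barrier, had 1 distal common peak 24799 bp after its start, at chr9:107644631-107644831, with the CCGGAAG letters on both strands. Itm2a, a membrane protein gene of barrier ECs, is shown at chrX:107403412-107403612. For the Wnt target genes Tcf7, which codes for a TCF/LEF factor, at chr11:52283263-52283463, and Nkd1, an inhibitor of Wnt signaling, at chr8:88521164-88521353, the capitals mark the TCF/LEF letters ATCAAAG or TTCAAAG on either strand.
Slc38a3 distal: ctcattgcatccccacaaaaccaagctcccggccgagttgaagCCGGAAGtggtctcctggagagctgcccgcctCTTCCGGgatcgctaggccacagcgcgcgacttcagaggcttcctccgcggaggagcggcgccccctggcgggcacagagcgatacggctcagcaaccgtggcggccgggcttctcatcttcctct
Itm2a promoter: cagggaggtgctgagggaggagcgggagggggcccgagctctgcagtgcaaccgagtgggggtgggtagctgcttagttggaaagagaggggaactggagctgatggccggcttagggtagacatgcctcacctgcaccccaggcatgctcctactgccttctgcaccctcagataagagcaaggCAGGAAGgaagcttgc
Tcf7 promoter: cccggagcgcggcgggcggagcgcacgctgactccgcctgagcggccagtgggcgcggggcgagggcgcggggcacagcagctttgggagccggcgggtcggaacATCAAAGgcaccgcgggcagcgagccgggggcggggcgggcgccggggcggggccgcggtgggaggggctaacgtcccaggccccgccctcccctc
Nkd1 promoter: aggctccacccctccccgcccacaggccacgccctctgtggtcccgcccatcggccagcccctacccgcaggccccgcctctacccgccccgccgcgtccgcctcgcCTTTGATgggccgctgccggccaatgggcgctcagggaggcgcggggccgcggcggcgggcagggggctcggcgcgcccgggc

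The fold enrichment over the 12 libraries was 4.02 to 10.2 at the Cdh5 distal peak, 5.53 to 14.1 at that of Kdr, 4.74 to 10.8 at Akap2, 3.92 to 13.2 at Swap70 and 4.10 to 9.14 at Slc38a3. At the gene starts it was 8.04 to 17.3 for Itm2a, 5.20 to 9.25 for Tcf7 and 6.84 to 14.3 for Nkd1.

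The libraries differed in how many peaks they held. Between 20634 and 45040 regions per library passed the limits, fewest in WT posterior pituitary replicate 2 and most in WT anterior pituitary replicate 2. WT anterior pituitary replicate 1 had 36860, fewer than the stabilized anterior pituitary libraries with 40071 and 42621. Of the reference regions, 61.8% to 88.8% were present in the other libraries. The number of reads per library is not in the peak lists, and both the count of peaks and the fold enrichment depend on it. Just inside the limits, the lowest member had a fold enrichment of 2.03 to 2.20 and a -log10 q of 2.03 to 3.003, by library. Just outside were the regions absent from 1 library only, 464 for WT posterior pituitary replicate 2, 428 for WT posterior pituitary replicate 1, 315 for WT cerebellum replicate 2 and 9 to 53 for each of the other 8. Of those, 39, 23 and 18 in this order were listed in the deposited lists under the limits, with a -log10 q of at most 1.998, 1.98 and 1.83. In each of the other 8 libraries at most 7 were, and in stabilized cerebellum some had a -log10 q of up to 23.8, so that the limit on fold enrichment left them out. Common peaks were also among the higher peaks of each library, with a median percentile of fold enrichment of 65.9 to 82.6 beside 24.4 to 48.1 for the other reference regions, and a median fold enrichment of 7.73 in WT posterior pituitary replicate 2 to 14.7 in stabilized anterior pituitary replicate 2.

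Common peaks were mostly promoters. The summit lay within 1000 bp of an annotated transcript start in 10483 of them (75.4%, 95% Wilson interval 74.7 to 76.1), against 2407 of the other regions (19.3%, 18.6 to 20.0). A further 1076 (7.74%) lay between 1000 and 5000 bp and 2339 (16.8%) lay farther than 5000 bp from every start and are called distal, against 2521 (20.2%) and 7568 (60.6%) of the others. All intervals of shares here cover counting error only, and regions of 1 library are not replicates. The promoter share differed little among regions of few libraries and then climbed in a step. It was 10.1% for the 845 regions found in WT cerebellum replicate 1 alone, 15.4% at 8 libraries, 25.5% at 10, 38.2% for the 1445 regions in 11 and 75.4% for those in all 12.

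**Figure D1:**
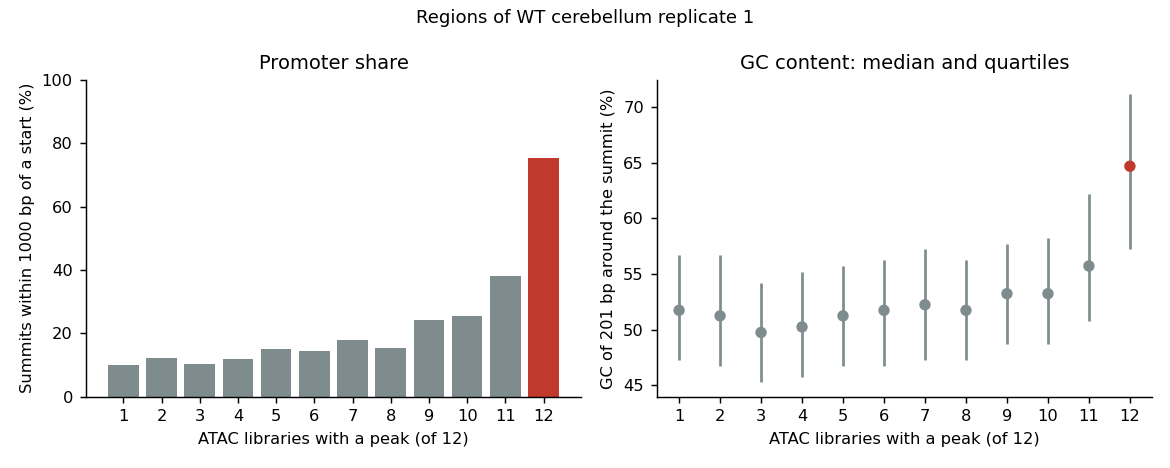
Regions of WT cerebellum replicate 1 by the number of ATAC libraries with an overlapping peak: left, the percentage with a summit within 1000 bp of a transcript start, as bars; right, the GC content in percent of 100 bp on either side of the summit, with points for medians and lines for quartiles. Both are highest in the regions of all 12 libraries, shown in red, at 75.4% and 64.7%.

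The GC content went the same way. In the window of 100 bp on either side of the summit the median was 64.7% in common peaks (quartiles 57.2 and 71.1) and 52.2% in the others (47.3 and 57.2), and it stayed between 49.8% and 53.2% for regions in up to 10 libraries. Promoters made much of this, with 67.2% in common promoters against 54.2% in common distal peaks, but common promoters also exceeded the other promoter regions (58.2%), and common distal peaks the other distal regions (50.7%). The starts of all 21938 protein-coding genes had a median of 58.7%. The ratio of observed to expected CG dinucleotides was 0.853 in common promoters, 0.600 at all protein-coding starts, and 0.298 and 0.228 in common and other distal regions, so common distal peaks were not of the CG-rich kind. Common peaks were also wider, with a median width of 644 bp against 328 bp.

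The common peaks are the same places in every library, since the rule asked for an overlap in each. With each library's own summits there, the promoter share was 75.1% to 75.5% and the median GC content 63.7% to 64.7%. The peaks of each library that did not overlap a common peak had a promoter share of 19.3% to 31.1% and a GC content of 51.7% to 56.2%. Common peaks made up 30.5% to 69.0% of a library's regions, the share being lower where more regions were called.

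At the common promoters the summit lay a median of 27 bp upstream of the start (quartiles -74 and 3), and 7492 of 10483 summits (71.5%) were upstream. In the other promoter regions the median was 15 bp upstream and 56.0% were upstream. The 50 bp before the start held 35.8% of the common promoter summits, the 50 bp before those held 18.9%, and the 50 bp after the start held 17.3%. Of the distal common peaks, 1218 (52.1%) were intergenic, 1040 (44.5%) were in introns and 81 (3.46%) in exons. By chromosome, 47.9% to 58.4% of the reference regions of each autosome and 58.2% of those of the X chromosome (377 of 648) were common, but only 7 of 203 (3.45%) of those of the Y chromosome.

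Letters of general promoter factors were frequent in common promoters. In these windows and on both strands, the SP letters GGGCGGG were in 52.2%, against 20.8% of the other promoter regions and 27.99% of the windows at all protein-coding starts. The ETS letters CCGGAAG were in 1766 (16.8%, 16.1 to 17.6) against 6.07% and 9.60%, the NFY letters CCAATCA in 10.8% against 4.61% and 6.40%, and the NRF1 letters GCATGCG in 5.21% against 1.91% and 3.30%. YY1 (ATGGCGGC, 4.47% against 1.41%) and CREB (TGACGTCA, 4.03% against 0.956%) followed the same order. The other ETS letters, CAGGAAG, were less frequent in common promoters than in the other promoter regions (9.45% against 17.5%), as were TCF/LEF (2.33% against 7.73%), AP-1 (2.83% against 4.65%) and the CTCF core consensus (0.916% against 2.87%). The 2 ETS strings share GGAAG and differ before it, so 1 window can hold both but 1 match cannot be counted as both, and GC-rich windows hold GC-rich letters more often whatever binds there. In the libraries' own windows CCGGAAG was in 16.3% to 17.8% of common promoters and 5.77% to 7.10% of the other promoter peaks, and SP letters in 50.7% to 52.2% and 20.8% to 31.6%. The common promoters are the same places in each of these counts and the other peaks are not.

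CCGGAAG was also placed at the summit. Its density within 50 bp of common promoter summits was 6.76 times that 300 to 490 bp away, against 1.59 times for CAGGAAG and 0.390 times for TCF/LEF letters, which were thus rarer at the summit than beside it. A match of letters is a description of a sequence and does not show that a factor binds.

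Distal common peaks held another set of letters. CAGGAAG was in 638 of 2339 (27.3%, 25.5 to 29.1), against 22.8% (21.9 to 23.8) of the other distal regions, and either ETS string in 716 (30.6%) against 26.2%. The AP-1 letters TGANTCA were in 362 (15.5%, 14.1 to 17.0) against 7.90% (7.32 to 8.53), and TCF/LEF letters, which were TTCAAAG and as the other accepted string ATCAAAG, in 156 (6.67%, 5.73 to 7.75) against 15.5% (14.7 to 16.3). The SOX letters CCATTGT had shares near each other (5.73% against 6.24%). So did the letters searched for GATA factors, AGATAAG (2.82% against 2.99%), for KLF factors, CCACACCC (4.40% against 3.81%), and for CTCF (2.48% against 2.93%), and the FOX letters TGTTTAC were in 3.93% against 6.01%. The remaining letters searched, the E-box CACGTG, were in 8.39% of common promoters and 5.53% of the other promoter regions. In all, 42.8% of distal common peaks held ETS, AP-1 or CTCF letters against 34.4% of the other distal regions.

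The AP-1 and TCF/LEF differences hold for the reference library and not for each of the 12. Among windows of 40% to 50% GC they were 19.8% against 9.29% for AP-1 and 9.47% against 20.4% for TCF/LEF, and among windows of 50% to 60% GC 16.3% against 7.58% and 7.04% against 12.8%. When each library's own distal peaks were used, AP-1 letters were in 15.2% to 18.9% of common and 7.90% to 20.4% of the other peaks, and TCF/LEF letters in 5.95% to 7.54% of common and 3.82% to 16.3% of the other peaks. The common peaks are the same places in each count by the rule, while the other peaks are different places in each library. CAGGAAG ranged from 26.4% to 28.4% in common and 20.6% to 27.9% in other distal peaks.

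**Figure D2:**
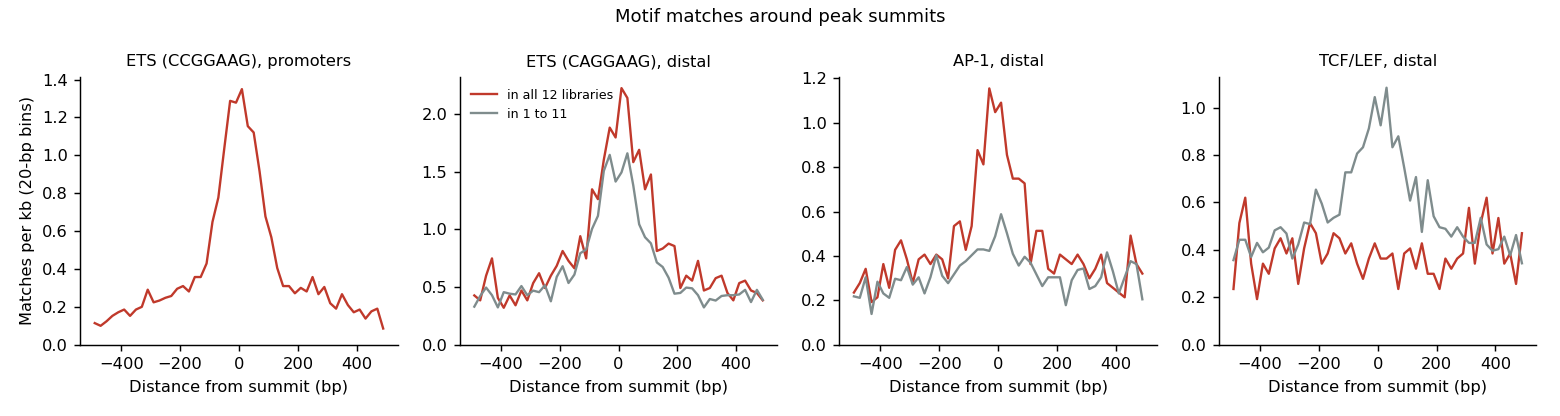
Matches per kb, in 20-bp bins, against the distance in bp from the summit in WT cerebellum replicate 1, for ETS (CCGGAAG) at common promoters and for ETS (CAGGAAG), AP-1 and TCF/LEF at distal regions, with common peaks in red and the other distal regions in grey. Around the summit the ETS and AP-1 lines of common distal peaks reach 4.07 and 2.92 times their flanks, while the TCF/LEF line is at 0.857 times its flank in common distal peaks and at 2.17 times in the others.

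The letters that were frequent in distal common peaks were also placed at the summit. The density within 50 bp was 4.07 times that of the flank for CAGGAAG (3.56 times in other distal regions), 2.92 times for AP-1 (1.70 times) and 16.3 times for CTCF (26.1 times). For TCF/LEF it was 0.857 times in common and 2.17 times in the other distal regions. Repeats were less frequent in common distal peaks, with 137 of 2339 windows (5.86%) at 50% or more repeat-masked bases against 875 of 7568 (11.6%).

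About 1 in 2 genes had a common peak at a start. Of 21938 protein-coding genes, 10432 (47.6%) had at least 1 common peak within 1000 bp of an annotated start, 979 (4.46%) had only another region of the reference library there and 10527 (48.0%) had none. Because neighbouring genes share promoters, 2791 common promoters (26.6%) lay at the starts of 2 or more genes. A distal common peak lay within 100 kb of 4635 protein-coding genes (21.1%).

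RNA, which the choice of the members did not use, followed the presence of a common peak. In the GFP-positive libraries the median level of genes with a common peak was 6.005 to 13.4 TPM (the share of a library's transcripts, scaled for their length), that of genes with only another region 0.118 to 1.47 TPM and that of genes with none was 0 in all 12. In GFP-negative cells, which are mainly the other cells of each tissue, genes with a common peak had a median of 2.98 to 11.3 TPM, so the same genes were also used there. Genes were also grouped by their mean level in the GFP-positive libraries of WT cerebellum, without the other groups. The share of genes with a common peak increased with this level. It was 5.52% at 0 TPM, 27.7% below 1 TPM and 65.8% at 1 to 3 TPM. It reached 91.8% at 10 to 30 and 93.9% at 100 to 300 TPM. At 300 TPM and above it was 83.4% (76.6 to 88.6). There were 416 genes with a common peak but under 1 TPM in all 12 GFP-positive libraries, of which 242 shared the peak with the start of another gene. Among the 416 were the cell cycle genes Cdc25c and Depdc1a and the thyrotropin receptor gene Tshr. The peaks of Cdc25c and Tshr also lay at the start of another gene, and that of Depdc1a did not.

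The sorted cells carried the RNA of ECs. Pecam1, which codes for CD31, was at 184 to 1031 TPM in GFP-positive and 0.0357 to 1.97 TPM in GFP-negative libraries, and 34 pan-endothelial genes summed to 4736 to 14611 TPM. RNA of other cells was present in part: 12 pericyte and smooth muscle genes summed to 49.0 to 1137 TPM, 12 pituitary hormone and endocrine genes to 1.32 to 6893 TPM, 10 astrocyte and pituicyte genes to 29.5 to 503 TPM (0.555 to 66.6 TPM without Gja1, a connexin gene that ECs express too), 12 microglia and leukocyte genes to 7.62 to 184 TPM, 10 oligodendrocyte genes to 9.59 to 59.2 TPM and 12 neuronal genes to 22.7 to 65.0 TPM, with Gfap at 0 throughout. Few of these genes had a common peak at a start. There was none for the 12 pericyte genes, and Gja1 of the astrocyte and Cnp of the oligodendrocyte genes had one, while 2 of the 12 neuronal genes had one (Cbln1 and Map2).

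Genes that define ECs had common peaks at their starts. Of 34 pan-endothelial surface, junction and signaling genes, 28 (82.4%) had one, among them Pecam1, Cdh5, Kdr, Flt1, Tek, Tie1, Eng, Emcn, Esam and Robo4. Adgrf5, Vwf and Ushbp1 had only another region at their start, and Mmrn2, Arhgef15 and Bmx had none. Of 24 endothelial transcription factor genes, 21 (87.5%) had one, including Erg, Fli1, Ets1, Sox17, Sox7, Sox18, Tal1, Gata2, Klf2, Klf4 and Epas1. Nr2f2, which sets venous identity, and Sox13 had another region only, and Heyl none. All 15 housekeeping genes had one, beside 47.6% of all protein-coding genes.

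Genes that set ECs of the brain apart had common peaks at some of their starts. Of 21 barrier transporter and junction genes 13 (61.9%) had a common peak at the start. These were Slc2a1 (the glucose transporter GLUT1), Cldn5 (the tight junction protein claudin-5), Abcg2 (an efflux pump), the amino acid and monocarboxylate carriers Slc7a5, Slc7a1, Slc3a2, Slc38a3 and Slc16a1, and Lsr, Tjp1, Bsg, Itm2a and Tfrc. The lipid transporter Mfsd2a, the organic anion transporters Slco1c1 and Slco1a4, Slc35f2, the junction genes Ocln and Marveld2, and Spock2 had another region only, and the efflux pump Abcb1a had none. Among 16 Wnt target and barrier factor genes, Axin2, Lef1, Tcf7, Apcdd1, Nkd1, Znrf3, Sp5, Fzd4, Ctnnb1, Foxf2 and Foxl2 (11) had a common peak, Notum and Tnfrsf19 were among those with another region only, and Rnf43 and Foxq1 had none. Of 11 genes of fenestrated endothelium 4 had one (Cav1, Cavin1, Igfbp3 and Nrp2). Plvap, the gene of the fenestral diaphragm, had none at its start although its RNA is a mark of the pituitary vessels, and neither had Gpihbp1, Cd36, Esm1, Apln and Tnfrsf11b; Nrp1 had another region only.

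The lists also had distal common peaks in different numbers. Within 100 kb of the gene body there were 8.59 distal common peaks per Mb for endothelial transcription factors and 6.80 for pan-endothelial genes, against 3.44 for housekeeping genes, 2.98 for fenestrated endothelium, 1.95 for barrier genes, 1.28 for Wnt targets and 1.28 for all protein-coding genes. At least 1 was found for 28 of 34 pan-endothelial and 18 of 24 transcription factor genes, but for 8 of 21 barrier and 5 of 16 Wnt target genes. For the 12 pericyte and the 12 neuronal genes there was none. No test was made between lists, which were chosen with results of these data known.

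EC genes can also be taken from the RNA alone. With edgeR's quasi-likelihood test, 355 of 21324 genes tested (1.66%) were higher in GFP-positive than in GFP-negative cells by at least 2-fold, at an adjusted p under 0.05 and at 10 TPM or more in both replicates, in WT cerebellum, anterior pituitary and posterior pituitary alike; they are called pan-EC genes. A common peak lay at the start of 313 of them (88.2%, 84.4 to 91.1) and a distal common peak within 100 kb of 203 (57.2%, 52.0 to 62.2). For 179 both were present and for 18 neither. The 163 genes that were higher in GFP-negative cells of all 3 tissues had these at 49.7% and 12.3%. High expression went with a peak at the start, as 95.5% of the 3203 protein-coding genes at 10 TPM or more in all WT GFP-positive libraries had one, but less with distal peaks, which 31.4% of those genes had. Per Mb there were 4.29 distal common peaks for pan-EC genes, 2.09 for the genes at 10 TPM or more, 1.45 for all protein-coding genes tested and 0.544 for the genes of GFP-negative cells.

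Pan-EC genes often had several distal common peaks. Of the 355, 152 (42.8%) had none, 28.5% had 1 and 12 (3.38%) had 5 or more, against 75.0%, 17.0% and 0.454% of protein-coding genes tested. The most, 6 each, were at Akap2 and Swap70, and 5 each at Ddit4, a stress-induced inhibitor of mTOR, at Dll4, a Notch ligand of arterial and tip cells, and at Elk3, an ETS factor. Also with 5 were Flt1, Gm32688, which shares its window with Elk3, Klf2, Rapgef2, She, Tmod3 and Tns1, named here beyond the first 5.

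The 6 distal peaks of Swap70, which codes for a signaling protein that binds phosphoinositides and Rac, lay at -64137, -57398, -56753, -31529, 15953 and 38455 bp from its start. The highest was that at -31529, with a fold enrichment of 12.3 and 12.8 in WT cerebellum and 17.6 and 16.4 once beta-catenin was stabilized. In anterior pituitary it was 7.42 and 15.9 before 17.01 and 16.5, and in posterior pituitary 4.32 and 4.55 before 11.1 and 13.2, WT first. Most common peaks moved in the same way. Relative to the median of all common peaks the difference was 0.01 in cerebellum and 0.45 in anterior pituitary on the log2 scale, neither of them called, and 0.99 in posterior pituitary (SE 0.23, limma adjusted p 0.0221), by the comparison of heights described below. The RNA of Swap70 was at 26.6 to 52.3 TPM in the 6 WT GFP-positive libraries. At Akap2, with 47.0 to 122 TPM in the same libraries, the peaks lay at -43934, -42048, -38293, 95375, 116637 and 148637 bp from the start that the annotation gives, all in introns of longer transcripts or of the gene, and the peak at 116637 bp ranged from 4.51 to 16.1.

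At Kdr and Dll4, genes of the VEGF and Notch pathways, distal common peaks lay on both sides of the start. Kdr had 4, at -35576, 16125, 44596 and 55531 bp, the last with a fold enrichment of 7.996 to 16.7, and those at 16125 and 44596 bp were in exons. Dll4 had 5, at -25515 (7.76 to 12.55), -13918, -11556, -10631 and 12268 bp (7.19 to 12.7), those at -13918 and -11556 with AP-1 letters and the outer ones with CAGGAAG. Flt1, the gene of VEGFR1, had 5, of which 3 were in introns. Cdh5 had 2, at -5726 and 20200 bp, and Tek, the gene of the angiopoietin receptor whose promoter drives GFP in these mice, had 2 in its introns at 7421 (9.68 to 18.5) and 90907 bp, both with CAGGAAG.

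Some of the transcription factor genes had several distal common peaks as well. The 4 at Sox17, at 70321, 25869, -46929 and -74489 bp, each held an ETS string, and the farthest upstream was the most even, with a fold enrichment of 11.4 to 20.3, beside 4.34 to 16.5, 4.32 to 18.8 and 3.06 to 14.97 for the others. Gata2 had 3, at -57675, -46368 and -41649 bp, all with CAGGAAG. Erg had 5, all in introns, 137735 to 295035 bp after the annotated start and none above 11.4. Klf2, a factor induced by blood flow, had 5, and those at -50441 and -23114 bp were high everywhere (10.6 to 16.1 and 9.66 to 18.9). Tal1 had 1, at 19227 bp (3.91 to 11.5). Of the barrier genes, Cldn5 had 2 at -71951 and -43444 bp (5.66 to 14.5 and 9.19 to 16.6), Lsr 1 at -27331 bp (4.65 to 11.0) and Slc2a1 none. Plvap had 3, of which the highest, at 78630 bp (22.7 to 34.9), lay in sequence that is 86.6% repeat-masked.

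Of the 2339 distal common peaks 371 (15.9%) lay within 100 kb of a pan-EC gene. KLF and FOX letters were more frequent in these than in the others, with intervals that did not overlap and no test of the difference. The KLF letters were in 7.28% (5.05 to 10.4) against 3.86% (3.10 to 4.81) and the FOX letters in 6.47% (4.39 to 9.44) against 3.46% (2.73 to 4.36). The intervals of CAGGAAG overlapped, at 32.1% (27.5 to 37.0) and 26.4% (24.5 to 28.4). AP-1 (17.3% against 15.1%), TCF/LEF (7.28% against 6.55%) and the GC content (54.2% in both) were near each other. Repeat-masked windows were 1.08% against 6.76%.

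Common promoters of pan-EC genes held some of the letters of general promoters less often than those of other expressed genes, by shares that were not tested. CCGGAAG was in 6.71% (4.43 to 10.0) of the 313 common peaks at their starts, against 19.6% (18.1 to 21.1) of the 2694 at the starts of the other genes at 10 TPM or more in all WT GFP-positive libraries. NRF1 (1.60% against 5.94%), YY1 (1.92% against 5.38%), NFY (6.39% against 9.95%) and the E-box (3.51% against 8.76%) went the same way. CAGGAAG (13.1%, 9.80 to 17.3, against 8.65%) and KLF (5.43% against 2.38%) went the other way, and SP letters were in 59.4% and 54.1%. The median GC content was 68.7% and 67.2% and the CG ratio 0.738 and 0.900. The common promoters of pan-EC genes were also lower, at a median percentile of 72.8 against 83.5. At the 407 common promoters of genes under 1 TPM, CCGGAAG was in 14.0%, NFY in 15.7% and the median percentile was 79.7.

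The height of a common peak, the highest fold enrichment among its overlapping peaks in a library, was compared between groups on the log2 scale with limma, after each library was centred on the median of its common peaks, and a call needed both a fold of 1.5 or more and an adjusted p below 0.05. The limits of the rule were the same for every library and took no account of its group, but they used these same values and put a floor under them. A region lost in any group is no common peak, so these comparisons cover differences in height above the floor only, and their p-values are no support for the choice of the members. The same comparisons were also made on regions that the compared libraries did not choose, with heights from the same libraries. The regions were drawn in WT cerebellum replicate 1, so a narrow region there can be set beside a higher peak of another library. The replicates of a group correlated with r = 0.874 to 0.962 across the 13898 common peaks, which share library and background, and the SD of 1 library was 0.124 to 0.239 on the log2 scale. p-values measure the spread between 2 libraries a group, which the study describes as biological replicates. Distal peaks varied more than promoters. The median SD of log2 height over the 12 libraries was 0.33 for distal peaks and 0.22 for promoters, and the highest library exceeded the lowest 2.66-fold and 2.02-fold.

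Few common peaks were called different in height when beta-catenin was stabilized. Of 13898, 272 were called higher and 522 lower in cerebellum (5.71%), 21 and 22 in anterior pituitary (0.309%), and 426 and 451 in posterior pituitary (6.31%). Between WT tissues, 959 were called higher and 1489 lower in cerebellum than in anterior pituitary (17.6%) and 482 and 812 than in posterior pituitary (9.31%). At an unadjusted p under 0.05, without the limit on the fold, limma gave 3829, 847, 4763, 6926 and 4425 in that order. These comparisons share WT libraries and are not independent. The counts depend on single libraries: leaving out 1 gave 117 to 1067 in cerebellum, 12 to 115 in anterior and 171 to 777 in posterior pituitary, and fitting only the compared groups gave 76, 24, 821, 1697 and 515 in the order above, so they do not rank the tissues or the comparisons. Regions were also drawn and chosen in the 8 libraries outside each comparison, a choice made after seeing the data, with a fold enrichment of 2 where a compared library had no peak. Of 14079 to 18641 such regions limma called 1055 (6.68%), 95 (0.675%), 2004 (12.2%), 3239 (21.8%) and 2937 (15.8%) in that order. Higher and lower were 385 and 670, 45 and 50, 1337 and 667, 1173 and 2066, and 1407 and 1530. In stabilized posterior pituitary rises thus outnumbered falls there, unlike among the common peaks. Of the called common peaks, 714 of 794, 43 of 43, 767 of 877, 2266 of 2448 and 1172 of 1294 overlapped one that was called in the same direction. This overlap was largely fixed beforehand and is no support, since the heights there are fold enrichments of the same compared libraries. For stabilized anterior and posterior pituitary the regions were again drawn in WT cerebellum replicate 1 and held all 13898 common peaks. Distal common peaks were called more often than promoters in each comparison, at 11.5% against 3.85%, 0.812% against 0.162%, 14.1% against 4.04%, 27.5% against 14.4% and 19.0% against 6.59% in that order.

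**Figure D3:**
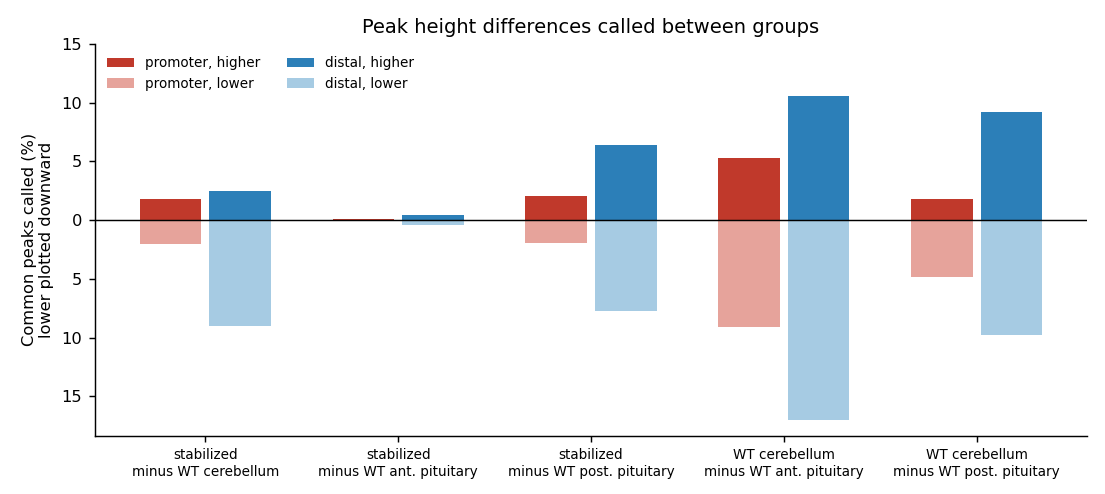
Percentage of common promoters (red) and distal common peaks (blue) called higher (upward) or lower (downward, lighter) in each of 5 comparisons of height, by limma with a fold of 1.5 or more and an adjusted p below 0.05. Distal peaks are called more often than promoters in all 5, at 11.5% against 3.85% in stabilized cerebellum and 14.1% against 4.04% in stabilized posterior pituitary.

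Regions with a steady summit were called in somewhat lower shares. In 9709 common peaks (69.9%) the highest summit lay within 100 bp of the reference summit in every library. Of these, 514 (5.29%) were called in stabilized cerebellum, 19 (0.196%) in anterior and 604 (6.22%) in posterior pituitary, and 1536 (15.8%) and 771 (7.94%) between WT cerebellum and the anterior and posterior lobes, beside the shares of all common peaks given above. Among the 137 distal common peaks in sequence of 50% or more repeats, 67 were called lower and 1 higher in stabilized cerebellum (49.6% called) and 74, all those called, lower in stabilized posterior pituitary (54.0%). Their median fold enrichment was 12.7 and 12.9 in WT cerebellum and 9.80 and 10.7 in stabilized cerebellum, and 12.8 and 13.4 and then 10.6 and 9.53 in posterior pituitary. The median of all common peaks moved the other way in the same libraries, from 9.42 and 9.78 to 13.1 and 12.6 and from 7.84 and 7.73 to 10.9 and 10.5. The part of read depth or background in this was not tested.

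Common peaks with TCF/LEF letters were called in shares near those of all distal common peaks. Of 156 distal common peaks with TCF/LEF letters, 3 were called higher and 9 lower in stabilized cerebellum (7.69%), 1 and 1 with stabilization in anterior pituitary (1.28%) and 13 and 7 in that of the posterior lobe (12.8%), where 11.5%, 0.812% and 14.1% of all distal common peaks were called. Between WT tissues, 26 were higher and 14 lower in cerebellum than in anterior pituitary, and 22 and 6 than in posterior pituitary. Over all 2339 distal common peaks these were 247 and 397, and 215 and 229. Those with AP-1 letters had 28 higher and 72 lower of 362 against anterior pituitary (27.6%, all distal 27.5%) and 17 and 59 against posterior pituitary. Of the 638 with CAGGAAG, 46 were called higher and 12 lower in stabilized posterior pituitary, where all distal common peaks had 150 and 180, and of the 58 with CTCF letters 19 were called lower in WT cerebellum than in anterior pituitary. These splits are counts, and no test between kinds was made.

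In stabilized posterior pituitary, 25 of the 371 distal common peaks near pan-EC genes were called higher and 7 lower (8.63%, 6.18 to 11.9), beside 125 and 173 of the other 1968 (15.1%, 13.6 to 16.8). In stabilized cerebellum the shares were 7.82% and 12.2%. Of the others 133 were in sequence of 50% or more repeats, against 4 of the 371. Without these, the shares were 8.45% (6.01 to 11.7) and 12.3% (10.8 to 13.8) in posterior pituitary and 7.63% (5.33 to 10.8) and 9.48% (8.23 to 10.9) in cerebellum, with intervals that overlap in both. Common promoters of pan-EC genes were called in shares near those of the other promoters when beta-catenin was stabilized, with 1 higher and 7 lower of 313 in cerebellum (2.56% against 3.89%), 0 in anterior pituitary (limma, 9 at an unadjusted p under 0.05; 0.167% of the others), and 3 and 9 in posterior pituitary (3.83% against 4.05%). In WT cerebellum minus anterior pituitary, 38 were higher and 5 lower, where the other 10170 promoters had 514 and 950.

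In cerebellum the largest called fall with beta-catenin stabilized was in an intron of Snrpb2, a gene of the spliceosome, at chr2:143065884-143066618. Its fold enrichment was 12.8 and 9.50 in WT against 2.80 and 2.64 in stabilized cerebellum, a log2 difference of -2.44 (SE 0.17, limma adjusted p 0.00014). An intergenic peak near Gm48679, at chr10:11492027-11492340, was at 18.2 and 18 in WT against 5.74 and 6.82 in stabilized cerebellum (-1.96, SE 0.27, adjusted p 0.0038). It was lower in the stabilized posterior pituitary too, with 15.7 and 13.5 in WT against 6.51 and 4.18 in stabilized libraries (-1.94, SE 0.27, adjusted p 0.00492). Gm8855, at chrX:87238261-87238509 in sequence that is 64.7% repeats, had -1.94.

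The largest called rises in cerebellum by the naming rule, at Crk (2.14), Wdr1 (2.104) and Dop1b (1.77), were narrow regions beside a higher peak. Their highest summit lay 592 to 740 bp away in some library, and with the nearest summit in its place, or with regions chosen outside the comparison, the calls were lost. With summits within 100 bp in all libraries, a choice made after these values were seen, the largest rises were at the start of the non-coding gene 9430037G07Rik at chr9:88599352-88599686, with 5.60 and 5.79 in WT against 20.5 and 19.0 in stabilized cerebellum (1.37, SE 0.20, adjusted p 0.00422), and at the start of Nbdy, which codes for a small protein of mRNA decapping bodies, at chrX:153723506-153723783, with 3.797 and 4.47 and then 14.6 and 13.03 (1.32, SE 0.15, adjusted p 0.00203). An intergenic peak at -22376 bp from the start of Id2, an inhibitor of helix-loop-helix factors, at chr12:25119257-25119718 with CAGGAAG letters, had 4.48 and 5.13 in WT against 14.1 and 15.6 in stabilized cerebellum (1.21, SE 0.18, adjusted p 0.00439).

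In anterior pituitary 43 common peaks in all were called. An intergenic peak near Gm35101 at chr10:99676576-99677181 was at 4.80 and 2.78 in WT against 14.2 and 13.7 in stabilized libraries (1.75, SE 0.25, adjusted p 0.0152), and the start of Mfsd13a at chr19:46356734-46357131 was at 3.28 and 4.24 and then 12.4 and 10.9 (1.46, SE 0.23, adjusted p 0.0264). The distal peak at -46929 bp from the start of Sox17, a factor of arterial and barrier vessels, at chr1:4543851-4544570, was at 3.06 and 3.66 in WT against 10.2 and 8.83 in stabilized anterior pituitary (1.33, SE 0.15, adjusted p 0.00461). The same peak was at 13.4 and 11.6 in WT cerebellum, higher than in WT anterior pituitary by 2.29 (SE 0.15, adjusted p 4.91e-05). At Sox17 itself the RNA difference in anterior pituitary, 1.29 (SE 0.63, edgeR adjusted p 0.698), did not pass the test.

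Among the falls in anterior pituitary, the peak at the start of a transcript of Mphosph8, which codes for a reader of methylated histone H3, at chr14:56693897-56694272, went from 19.4 in both WT libraries to 8.05 and 6.76 (-1.58, SE 0.18, adjusted p 0.00461). A peak at -5495 bp from the start of Cd209a, a lectin gene of dendritic cells, at chr8:3754315-3754807, had 20.6 and 21.7 in WT against 7.07 and 9.61 in stabilized libraries (-1.54, SE 0.16, adjusted p 0.00234). The falls at Oaz1 (-1.77) and Ncoa2 (-1.75) were narrow regions whose highest summit lay 627 and 1533 bp away, and they were lost with the nearest summit. With aligned summits, the starts of Dab2ip, a Ras GTPase-activating protein gene (chr2:35691653-35692036, 3.65 and 5.08 in WT against 9.95 and 9.57 in stabilized libraries, 0.998, SE 0.14, adjusted p 0.0137), and of a transcript by Baalc (0.99, SE 0.10, adjusted p 0.00234) were among the rises.

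In posterior pituitary the largest called rise with an aligned summit was at -58071 bp from the start of Max, the gene of the MYC partner, at chr12:77020099-77020366, with CAGGAAG and AP-1 letters. It was at 3.92 and 4.14 in WT against 13.6 and 13.9 in stabilized posterior pituitary (1.31, SE 0.13, adjusted p 0.0018). The start of B230206L02Rik followed (4.13 and 3.78, then 13.5 and 12.7; 1.27, SE 0.10, adjusted p 0.000489). The rises at Crk (1.72) and Igsf8 (1.31) were narrow regions and were lost with the nearest summit. The falls were at intergenic peaks, near Gm28590 (15.5 and 14.3, then 5.86 and 4.57; -1.98, SE 0.22, adjusted p 0.00242) and at -29212 bp from the start of Apbb1ip, the gene of an integrin adaptor of leukocytes, at chr2:22744640-22745070 (10.4 and 10.5, then 3.25 and 4.57; -1.90, SE 0.26, adjusted p 0.00462).

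Between WT tissues, the start of Glb1l2, a galactosidase-like gene, at chr9:26806135-26806780, was at 12.98 and 14.2 in cerebellum and 3.93 and 4.98 in anterior pituitary (2.01, SE 0.16, adjusted p 4.98e-05). An intron of Arsg followed (2.004), and with aligned summits the start of the metallothionein gene Mt2 at chr8:94172280-94172885 (11.5 and 9.93 against 3.51 and 4.05, 1.89, SE 0.13, adjusted p 4.91e-05). In the region that stabilized cerebellum gave at Mt2 the difference was 0.44 and not called. The start of Lama3, which codes for a laminin chain, was at 2.997 and 3.31 in cerebellum, 19.0 and 18.4 in anterior pituitary and 11.3 and 12.2 in posterior pituitary, so it was lower in cerebellum by both comparisons (-2.18, SE 0.11, adjusted p 1.96e-05, and -2.20, SE 0.11, adjusted p 1.73e-05). Prickle2, a planar polarity gene (2.997 and 3.64 against 13.6 and 18.1, -1.86), and Egln3, an oxygen sensor (2.997 and 3.81 against 16.4 and 15.3, -1.84), were lower than in anterior pituitary. Against posterior pituitary, a peak at -5486 bp from the start of Capg, an actin capping gene, was higher in cerebellum (14.03 and 15 against 4.17 and 3.77, 1.57, SE 0.12, adjusted p 0.00011), and the starts of Ppp1r3b (-1.88) and Map2 (4.196 and 4.14 against 13.4 and 11.5, -1.87, SE 0.15, adjusted p 0.000141) were lower. Fzd1 (-2.52) and Eif4a2 (-2.04), lower in cerebellum than in posterior pituitary, and Wdr1 (-2.01), lower than in anterior pituitary, were narrow regions. With the nearest summit Eif4a2 remained called (-0.996, limma adjusted p 0.0181), and Fzd1 (-1.33, adjusted p 0.24) and Wdr1 (-0.22, adjusted p 0.38) did not. In regions chosen outside the comparison Fzd1 was called (-0.68, adjusted p 0.0148), and Eif4a2 (-0.10) and Wdr1 (0.45) were not.

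The starts of the listed genes were read against all common promoters, of which 3.85%, 0.162% and 4.04% were called with stabilized beta-catenin in cerebellum, anterior and posterior pituitary. Of the 28 pan-endothelial starts, Calcrl, a receptor gene for adrenomedullin, and Myct1 were called higher and Tek lower in cerebellum (0.70, 0.72 and -0.63), none was called in anterior pituitary (limma, 2 at an unadjusted p under 0.05), where 0.309% of all common peaks were, and Calcrl was higher (1.04, SE 0.17, adjusted p 0.00884) and Cd34 lower (-0.62) in posterior pituitary. At Calcrl the fold enrichment was 5.40 and 4.14 in WT against 11.8 and 8.94 in stabilized cerebellum, 11.7 and 17.1 and then 14.9 and 14.7 in anterior pituitary, and 4.32 and 4.34 and then 12.4 and 11.9 in posterior pituitary, so that WT cerebellum and WT posterior pituitary were low and the other groups high. Of the 21 transcription factor starts Gata2 alone was called, lower in cerebellum (-0.73). Of the 15 housekeeping starts limma called none in the 3 comparisons, with 2, 1 and 2 at an unadjusted p under 0.05. The median log2 difference of these lists lay between -0.20 and 0.04, beside -0.07, -0.01 and -0.06 for all common peaks.

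In WT cerebellum minus anterior pituitary, Cdh5 (0.97), Kdr (0.76), Flt1 (0.63), Egfl7 (0.66), S1pr1 (0.59) and Acvrl1 (0.66) were called higher and Calcrl lower (-1.19), and among the factors Erg (0.70), Sox17 (1.53), Lyl1 (0.62), Gata2 (0.73) and Klf2 (0.72) were higher, where 17.6% of all common peaks were called. The start of Sox17 was at 11.1 and 12.7 in WT cerebellum and 5.21 and 5.61 in WT anterior pituitary. The median over the 28 pan-endothelial starts was 0.41 and over the 15 housekeeping starts 0.37, beside 0.10 for all common peaks, and Actb (0.60) and Eef1a1 (0.61) were called higher and Gusb lower (-0.65).

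RNA of the same genes was tested with edgeR on all 17900 genes with enough reads, with calls where the fold was 2 or more and the adjusted p below 0.05. With beta-catenin stabilized, 4 genes with a common peak at the start were higher and 55 lower in cerebellum, 24 and 1 in anterior pituitary and 113 and 82 in posterior pituitary, of 10932 such genes. These are 0.540%, 0.229% and 1.78%, where 0.648%, 0.458% and 1.82% of all genes were called. In WT cerebellum 350 were higher and 228 lower than in anterior pituitary (5.29%, all genes 5.25%) and 252 and 227 than in posterior pituitary (4.38%, all genes 4.4%). For genes with only another region at the start the shares were 0.719%, 2.36%, 5.54%, 13.4% and 12.4% in that order, and for genes with none 0.804%, 0.569%, 1.24%, 3.87% and 3.01%, and no test between these was made. The counts depend on single libraries and on the tool. Leaving out 1 library gave 77 to 335, 31 to 88, 87 to 842, 415 to 491 and 372 to 915 genes with a common peak, and DESeq2 called 387, 162, 633, 973 and 957. In bulk samples fewer cells of a type and less RNA per cell cannot be told apart. The labels of the library taken as stabilized anterior pituitary replicate 2 name both lobes, the anterior in its title and the posterior in its tissue entry. Without it, 58 genes with a common peak were called in anterior pituitary instead of 25, and the differences described below remained called there, at 6.60 for Fn1, 3.52 for Net1, -2.06 for Hspb1, 3.37 for Rps18, 1.42 for Slc2a1, 5.33 for Tcf7 and 9.39 for Nkd1 on the log2 scale, with the remaining library assumed to vary like the other groups.

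TPM and the fitted differences are on separate scales in posterior pituitary. Over the 10311 genes at 1 TPM or more in both groups, the median log2 ratio of stabilized to WT mean TPM was -0.94, that of edgeR with TMM scaling was -0.05 and that with library size only, a choice made after seeing the data, was -0.29. Mir6236, which lies in ribosomal RNA sequence, took 9.66% and 29.2% of TPM in the WT and 33.4% and 32.4% in the stabilized libraries. Between WT cerebellum and posterior pituitary the TPM median was -0.43, and in the other 3 comparisons it was -0.14 to -0.03. With library size only, 85 genes with a common peak were called higher and 209 lower in stabilized posterior pituitary, instead of 113 and 82. Of the 195 called, 7 had a TPM ratio in the other direction. RNA rises there are therefore relative to most genes, and falls in TPM include this shift.

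For most genes whose RNA was called, the height of the common peak was not. The height was also called for 10 of 59 genes in cerebellum (8 in the same direction), for 1 of 25 in anterior pituitary, for 16 of 195 in posterior pituitary (10 in the same direction), for 105 of 578 between WT cerebellum and anterior pituitary (60) and for 65 of 479 between WT cerebellum and posterior pituitary (52). As a share this was 16.9%, 4.00%, 8.21%, 18.2% and 13.6%, against 3.05%, 0.0275%, 3.47%, 12.0% and 5.03% of the genes whose RNA was not called. Across the 10932 genes, which share libraries and are not independent, the correlation of the RNA difference and the height difference was 0.0203, 0.0331, 0.0398, 0.0323 and 0.0786 (Pearson).

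**Figure D4:**
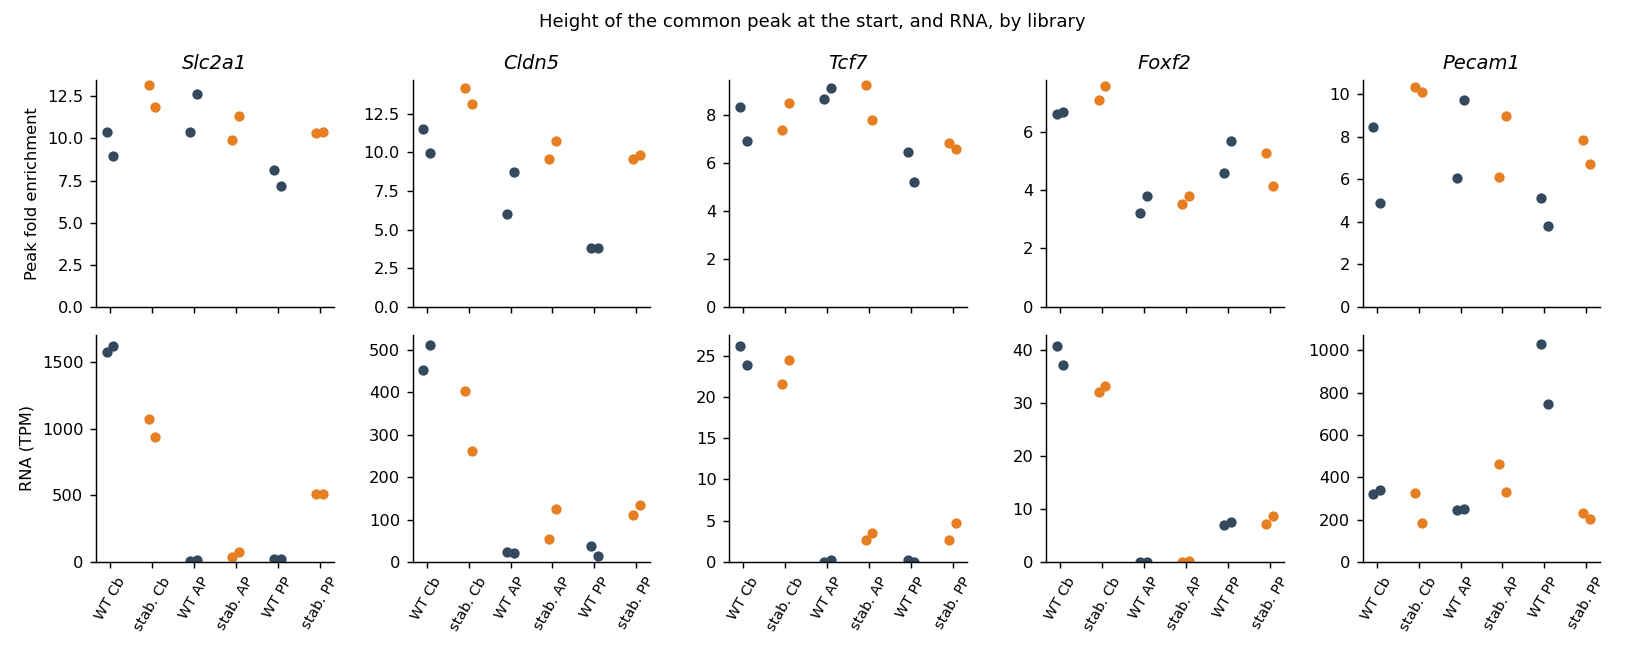
Fold enrichment of the common peak at the start (top) and RNA in TPM (bottom) of Slc2a1, Cldn5, Tcf7, Foxf2 and Pecam1, with 1 point per library; Cb, AP and PP are cerebellum, anterior and posterior pituitary, WT is dark and stabilized (stab.) orange. Slc2a1 RNA spans 10.8 to 1625 TPM over peaks of 7.16 to 13.2, while the Cldn5 and Foxf2 peaks are lower where their RNA is low in WT libraries.

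Slc2a1 had a peak without a height call beside RNA that differed greatly. Its common peak at chr4:119108411-119109372 had a fold enrichment of 10.4 and 8.99 in WT against 13.2 and 11.9 in stabilized cerebellum, 10.4 and 12.7 and then 9.94 and 11.3 in anterior pituitary, and 8.11 and 7.16 and then 10.4 and 10.4 in posterior pituitary. Its RNA was at 1579 and 1625 TPM in WT and 1071 and 941 TPM in stabilized cerebellum, 10.8 and 16.7 and then 34.7 and 76.5 TPM in anterior pituitary, and 21.1 and 24.8 and then 511 and 511 TPM in posterior pituitary. The RNA rose with stabilized beta-catenin in posterior pituitary by 5.78 (SE 0.40, edgeR adjusted p 1.61e-05) and in anterior pituitary by 1.88 (SE 0.33, adjusted p 0.0285), and the height differences were -0.01 and -0.29, neither called. Between WT cerebellum and the pituitary lobes the RNA differed by 6.92 and 7.05 and the height by 0.14 and 0.04. The highest summit of this region lay up to 452 bp from the reference summit, as it did up to 388 bp at Axin2 and 395 bp at Lsr.

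Cldn5 had both. Its common peak at chr16:18775817-18777274 was at 11.5 and 9.97 in WT cerebellum, 14.2 and 13.1 in stabilized cerebellum, 6.01 and 8.72 and then 9.57 and 10.8 in anterior pituitary, and 3.82 and 3.79 and then 9.54 and 9.82 in posterior pituitary. RNA was at 453 and 511, 403 and 263, 23.4 and 21.9, 54.8 and 124, 37.2 and 13.2, and 111 and 135 TPM in that order. In posterior pituitary the height rose by 0.89 (SE 0.13, limma adjusted p 0.00625) and the RNA by 3.10 (SE 0.48, edgeR adjusted p 0.00594), and WT cerebellum exceeded WT posterior pituitary by 1.19 in height and 4.98 in RNA. The region is wide, and its highest summit lay up to 741 bp from the reference summit.

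The other barrier genes were like Slc2a1 more than Cldn5. Of the 13 with a common peak, RNA rose in stabilized posterior pituitary for 10 and was called lower for 0 (edgeR, 12 of 13 at an unadjusted p under 0.05; median 2.90), where 1.82% of all genes and 1.78% of those with a common peak were called, while the height was called higher for Cldn5 and lower for Abcg2 (-0.75, with RNA at 1.18). Among the 10 were Slc7a5 (6.10, SE 1.13, adjusted p 0.0191), Slc7a1 (2.91), Tfrc, the transferrin receptor gene (3.03), Slc38a3 (2.90), Bsg (1.46) and Itm2a (1.41), with height differences of 0.14, -0.25, 0.05, -0.03, -0.26 and -0.18. In TPM some hardly moved: Tfrc was at 10.6 and 1.72 in WT and 10.1 and 3.03 in stabilized libraries, Itm2a at 449.6 and 245 and then 450.4 and 468, and Abcg2 at 347 and 275 and then 420.1 and 342. With library size only, the calls of these 3 and of Bsg were lost, and the direction of all 10 was kept. Lsr was at 0.184 and 0 TPM in WT and 13.5 and 10.8 TPM in stabilized posterior pituitary, with a height of 5.61 and 4.18 and then 7.24 and 7.74 (0.17, not called). In anterior pituitary, where 0.458% of all genes were called, Slc2a1 was the 1 of the 13. In cerebellum edgeR called none, with 2 at an unadjusted p under 0.05, and DESeq2 called 0. In WT cerebellum, RNA was higher than in posterior pituitary for 12 of 13 (median 5.10) and than in anterior pituitary for 10 of 13 (median 4.51), where 4.4% and 5.25% of all genes were called, and 1 height was higher and 1 lower in each, where 9.31% and 17.6% of all common peaks were called. Of the 12, Slc3a2 (1.14) was at 1906 and 1123 TPM in WT cerebellum and 1450 and 1717 TPM in WT posterior pituitary, so that its TPM means had the other direction. In these libraries the 12 pericyte genes summed to 1137 and 914 TPM in cerebellum, 192 and 226 TPM in anterior and 164 and 84.7 TPM in posterior pituitary, and the 12 endocrine genes to 36.5 and 32.8, 6893 and 4419, and 3384 and 480 TPM, and the part of these cells in the differences was not tested. The lower one was Bsg, which codes for basigin, a partner of monocarboxylate carriers. Its RNA was at 2873 and 3597 TPM in WT cerebellum and 94.4 and 72.6 TPM in WT anterior pituitary (5.18), and its peak at chr10:79704141-79704662 was at 6.95 and 8.57 against 15.4 and 19.2 (-0.76).

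Of the 11 Wnt target and barrier factor genes with a common peak, Nkd1 and Tcf7 were called higher in RNA in stabilized anterior pituitary, and these with Axin2 and Apcdd1 in posterior pituitary, where 0.458% and 1.82% of all genes were called. No other of the 11 was called in these comparisons. Nkd1, shown above with TCF/LEF letters at its start, was at 0.0393 and 0 TPM in WT and 6.76 and 12.6 TPM in stabilized anterior pituitary, and at 1.80 and 0.0129 and then 27.7 and 40.1 TPM in posterior pituitary (7.56, SE 0.84, edgeR adjusted p 0.000542). Its peak differed by -0.00424 and -0.27 on the log2 scale in the same comparisons, and was at 11.6 and 13.1 in WT against 14.3 and 13.6 in stabilized anterior pituitary. Tcf7 was at 0 and 0.203 and then 2.65 and 3.54 TPM in anterior pituitary and at 0.231 and 0 and then 2.61 and 4.71 TPM in posterior pituitary, both called, with a height difference of -0.25 in each. Axin2, a feedback inhibitor of Wnt signaling, was at 0.356 and 0.405 TPM in WT and 26.7 and 28.1 TPM in stabilized posterior pituitary (5.73, SE 1.16, adjusted p 0.029) and its height differed by -0.16. Apcdd1 rose there as well (3.70, SE 0.33, adjusted p 7.06e-05; height -0.31). Lef1, at 0.258 and 6.04 and then 55.7 and 35.2 TPM, did not pass the test (adjusted p 0.0528). Of the 11 limma called none in height in the 3 stabilized comparisons, with 5 in cerebellum, 0 in anterior and 4 in posterior pituitary at an unadjusted p under 0.05. In posterior pituitary Foxf2 (-0.58, limma adjusted p 0.0231) and Lef1 (-0.57, adjusted p 0.0469) passed on p but lay under the fold of 1.5.

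A few genes moved in both. Fn1, which codes for fibronectin, was at 3.34 and 1.05 TPM in WT and 199 and 281 TPM in stabilized anterior pituitary (7.12, SE 0.48, edgeR adjusted p 1.47e-05), and its peak at chr1:71652683-71653622 went from 7.21 and 7.02 to 15.995 and 15.9 (0.98, SE 0.12, limma adjusted p 0.00664). It was the 1 gene of 25 called in both there. Foxf2, a factor of brain vessels, was listed at 0 TPM in both WT anterior pituitary libraries and at 40.9 and 37.2 TPM in WT cerebellum, with a peak of 3.203 and 3.79 against 6.62 and 6.69 (1.33, SE 0.14, adjusted p 0.000196). Fabp5, a fatty acid binding protein gene, was at 0 and 1.24 TPM in WT cerebellum and 25.4 and 47.5 TPM in WT posterior pituitary, with a peak at chr3:10012355-10012642 of 4.80 and 3.95 against 13.7 and 12.0 (-1.86, SE 0.14, adjusted p 0.00011). F8, the gene of coagulation factor VIII, was lower in WT cerebellum than in anterior pituitary in RNA (-7.42) and height (-1.13), Mboat1 was listed at 0 TPM in WT posterior pituitary with a height difference of 1.40, and Elovl7 was listed at 0 TPM in WT anterior pituitary with one of 1.11.

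Other genes with the largest RNA differences were not called in height. In stabilized anterior pituitary Net1, a RhoA exchange factor gene, rose (3.65, height 0.03) and Hspb1, a small heat shock protein gene, fell by 2.21 on the log2 scale (height -0.02). In stabilized posterior pituitary Grb14, an adaptor of the insulin receptor, rose (9.76, height 0.34), Cbln1 was listed at 0 in both WT libraries and at 19.2 and 23.0 TPM in stabilized ones (height -0.08), and Lzts2 fell (-2.57, height -0.38). In stabilized cerebellum Itih5 rose (1.83, height 0.48, not called) and the immediate early gene Egr1 (-4.29, height -0.31) and Tspan18 (-4.07, height -0.09) fell. Rps2 and Rps18 rose in stabilized cerebellum (3.92 and 3.69), Rps18 also in anterior (3.54) and posterior pituitary (8.64), and Rps29 was listed at 0 TPM in stabilized cerebellum only. Ribosomal protein genes have near-identical copies, as do Gm10800 (-6.07) and Hspa1b (-5.29), which fell in posterior pituitary, so these values are uncertain. The WT replicates were also far apart. Gm10800 was at 80.3 and 5152 TPM in WT and 29.0 and 20.5 TPM in stabilized posterior pituitary, and Hspa1b at 1561 and 223 and then 21.9 and 24.4 TPM.

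Between WT tissues, Flvcr2, a heme and choline carrier gene of brain vessels, was at 14.3 and 27.0 TPM in cerebellum and listed at 0 in the 4 WT pituitary libraries, with height differences of 0.43, not called, and 0.74, called, and Rad54b was listed at 0 in WT posterior pituitary (height 0.37). Rasa4 (-7.81 and -6.17, heights 0.40 and 0.19), Irf8 (-7.16, height 0.01), a leukocyte factor, and Fkbp5 (-6.41, height 0.23), a gene induced by glucocorticoids, were lower in cerebellum. The RNA of the pan-endothelial list moved with the posterior pituitary groups. Of its 28 genes with a common peak, Pecam1 (-1.07), Kdr (-1.89), Ptprb (-1.53), Notch4 (-1.68) and Podxl (-1.78) fell with stabilized beta-catenin, where 1.82% of all genes were called, and edgeR called none higher, with 13 of the 28 at an unadjusted p under 0.05, and the 34 genes summed to 14611 and 11405 TPM in WT and 4736 and 4756 TPM in stabilized libraries. In the same libraries the 12 endocrine genes summed to 3384 and 480 and then 348 and 811 TPM, the 12 pericyte genes to 164 and 84.7 and then 57.0 and 49.0 TPM, and the 12 microglia and leukocyte genes to 61.3 and 37.2 and then 183 and 116 TPM. The part of cell make-up in the RNA differences of this tissue was not tested.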

How the data were processed

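Of 52 samples, the peak lists of 12 ATAC libraries and the tables of 24 sorted RNA libraries were used, and 16 RiboTag RNA libraries were not analysed here. The authors used Bowtie2 2.3.2 on mm10 and MACS2 2.1.1.20160309 for peaks of each library; the deposited fold enrichment is a ratio of pileup to local background, and the deposited q-value is given as -log10 q. The authors' RNA tables, deposited per transcript, hold the estimated count and TPM of Salmon 0.10.2, and kallisto 0.44.0, Picard and deepTools are also in the submitters' processing notes. Read depth of the ATAC libraries is not in the lists, and with it peak number, fold enrichment and the limits vary; the RNA libraries hold 12.2 to 37.5 M estimated reads. The members and gene lists were chosen with earlier results of these data known.

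Entries on chrM were dropped. A region's summit is that of its highest entry, promoters are within 1000 bp and distal regions over 5000 bp from any GENCODE vM21 start, and motif letters were counted in 201 bp of the RefSeq GRCm38.p6 sequence. Transcripts were summed by gene for 130254 of 130740 transcripts. Heights were tested with limma 3.58.1 on log2 fold enrichment over all 12 libraries, and estimated counts, rounded, with edgeR 4.0.16 (quasi-likelihood, TMM, low-count filter), with Benjamini-Hochberg adjustment and DESeq2 1.42.0 as an alternative, in R 4.3.3; Python 3.11.15, pandas 2.3.3, numpy 2.4.6, scipy 1.17.1, pysam 0.24.0 and matplotlib 3.10.9 were used for the rest. The tests were checked on simulated data. Genes and regions were named by rule: list genes with a common peak at the start; the 10 highest common peaks by median percentile; in each comparison the 3 largest rises and falls in height among calls whose replicates did not overlap, and the 3 largest in RNA among called genes with a common peak and 10 TPM or more in the higher group; and the first 5 pan-EC genes by number of distal common peaks. 1 RNA library has a title of anterior and a tissue label of posterior pituitary; it was taken as stabilized anterior pituitary replicate 2. Alternatives were other limits, overlaps, reference libraries, windows, normalizations, filters and tools, a replicate block and leaving out each library. Some results are not reported here.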

Additional observations from a re-analysis of the deposited data

Results flagged for a closer look

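The effect of stabilized beta-catenin differed between tissues at some of the named peaks and genes, by a test of the interaction over all common peaks (limma) or genes (edgeR) with an adjusted p under 0.05. Values are differences between 2 log2 effects. For height they rest on the same fold enrichments that the limits of the common peaks used, and the interaction was not tested in other regions. The peaks named below were picked for their large differences in these same libraries, so their values are a description. In all, 68 common peaks had a larger and 31 a smaller effect on height in anterior pituitary than in cerebellum (0.712% of 13898). These counts were 35 and 13 in posterior pituitary against cerebellum (0.345%), and 11 and 6 in posterior against anterior pituitary (0.122%). For the RNA of genes with a common peak the counts were 29 and 1, 60 and 10, and 6 and 4, of 10932 such genes. The shares over all genes were not counted for these tests.

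For height, anterior pituitary minus cerebellum, Gm35101 (2.42), Snrpb2 (1.75), the Sox17 upstream peak near Gm38076 (1.501), Gm49097 (1.33) and Dab2ip (1.08) were positive and Crk (-2.15), Eif4a2 (-1.74), Fzd1 (-1.64), Ncoa2 (-1.61), Nbdy (-1.51) and Oaz1 (-1.30) negative. For posterior pituitary minus cerebellum, Snrpb2 (2.25), the Max upstream peak near Gm35189 (1.45), 4930444A19Rik (1.17) and B230206L02Rik (1.09) were positive and Fzd1 (-2.24) and Eif4a2 (-1.99) negative. For posterior minus anterior pituitary, Crk (1.73), Ncoa2 (1.55), Oaz1 (1.45) and Gm35189 (1.203) were positive and Gm49097 (-1.08) negative. Crk, Ncoa2, Oaz1, Fzd1 and Eif4a2 are narrow regions beside a higher summit.

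For RNA, posterior pituitary minus cerebellum, the barrier genes Slc2a1 (6.09), Cldn5 (3.47) and Lsr (8.003), the Wnt targets Tcf7 (6.71), Nkd1 (4.90) and Apcdd1 (2.92), and Grb14 (8.80), Elovl7 (6.31), Net1 (4.13), Fn1 (3.39), Rps18 (4.95), Flvcr2 (11.53) and Rps29 (11.76) differed. For anterior pituitary minus cerebellum these were Nkd1 (7.07), Fn1 (6.14), Flvcr2 (10.64) and Rps29 (12.02), and for posterior minus anterior pituitary Slc2a1 (3.91), Apcdd1 (2.84), Grb14 (6.33) and Rps18 (5.09). Flvcr2, Lsr, Tcf7, Nkd1, Grb14, Elovl7 and Rps29 were listed at 0 TPM in at least 1 library, and their fitted values depend on the prior count.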

How the results depend on the processing

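The members had a promoter share of 75.4% and a median GC content of 64.7%. The share was 81.2% with fold enrichment over 4 and -log10 q over 5, 78.1% when the overlap had to cover 50% of the region, 72.3% and 78.4% within 500 and 2000 bp of a start, and 70.5% with starts of protein-coding genes only. The GC content was then 65.7% (stricter limits), 65.2% (overlap), 65.3% within 50 bp of the summit, 62.3% over whole regions, 63.7% with the regions of stabilized cerebellum replicate 1 and 64.2% with those of stabilized cerebellum replicate 2 or either stabilized posterior pituitary library. Without 1 library there were 13907 to 14408 common peaks, a promoter share of 74.3% to 75.4%, a GC content of 64.2% to 64.7%, 316 to 430 pan-EC genes, and a common peak at the start of 87.7% to 89.6% and a distal one for 55.1% to 59.0% of these.

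Counts of height calls were less stable. In stabilized cerebellum (794) they were 316 with quantile normalization, 76 with only the groups compared, 154 at a fold of 2 and 514 among the 9709 with aligned summits (5.29% of those), in anterior pituitary (43) 24, 19 and 19 for the last 3, in posterior pituitary (877) 107 at a fold of 2, between WT cerebellum and anterior pituitary (2448) 669 at a fold of 2 and 1536 with aligned summits, and between WT cerebellum and posterior pituitary (1294) 515 with only the groups compared, 295 and 771. In regions drawn and chosen outside each comparison there were 95 in anterior and 2004 in posterior pituitary and 2937 between WT cerebellum and posterior pituitary. These regions, aligned summits, sequence of less than 50% repeats, names among aligned peaks and library size only were chosen after seeing the data. Leaving out 1 library gave 117 to 1067 in cerebellum (117 and 284 without stabilized replicates 1 and 2), 12 to 115 in anterior pituitary (21 and 115 without WT replicates 1 and 2, 23 and 12 without stabilized replicates 1 and 2), 171 to 777 in posterior pituitary (454 and 402 without WT replicates 1 and 2, 171 without stabilized replicate 2), 1921 to 2969 and 919 to 1864. With the summit nearest to the reference, Crk (-0.29) and Dop1b (-0.41) in cerebellum, Ncoa2 (0.0915) in anterior pituitary, Igsf8 (-0.20) in posterior pituitary and the Hhex start between WT cerebellum and posterior pituitary (1.11) changed sign. Of the alternatives for the 88 named heights, 569 kept the call and direction and 130 lost the call.

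RNA calls among genes with a common peak rose to 387 with DESeq2 and 258 without the low-count filter in cerebellum (59), 162 and 164 in anterior pituitary (25), 633 and 522 in posterior pituitary (195; 294 with library size only), 973 with DESeq2 between WT cerebellum and anterior pituitary (578) and 957 and 788 against posterior pituitary (479). Leaving out 1 library gave 77 to 335 in cerebellum (107 without WT replicate 1, 335 and 106 without stabilized replicates 1 and 2), 31 to 88 in anterior pituitary (41 without WT replicate 1, 88 and 58 without stabilized replicates 1 and 2), 87 to 842 in posterior pituitary (842 and 109 without WT, 87 and 120 without stabilized replicates 1 and 2), 415 to 491 and 372 to 915 (915 without WT posterior pituitary replicate 1). Of the alternatives for the 116 named RNA values, 986 kept the call and direction and 58 lost the call. The cause was not tested.

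Replicate numbers were shared between groups, but same-numbered libraries did not deviate together, with correlations of -0.132 to 0.139 for height and -0.0174 to 0.0301 for RNA over 15 pairs of groups. With the replicate number as a block, RNA calls in anterior pituitary were 40 instead of 25. Read depth is not in the peak lists, and its effect on the heights was not measured.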

Other observations

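The highest common peaks were unlike the rest. Of the 10 with the highest median percentile, 8 were distal and 0 were promoters, and 6 lay in sequence of 50% or more repeats. The first, on the X chromosome at chrX:143482908-143483208 and at -35529 bp from the nearest start, of Pak3, had a fold enrichment of 39.5 to 45.8 over the 12 libraries, and the second, near Gm9075 in sequence that is 99.5% repeats, 40.8 to 43.5. The others lay near Gm44436, Gm5110, Tcstv3, Gm12591, Gm47772, Gm26463, Gm22024 and in an intron of Lama1. Among the 100 highest, 46 were promoters and 32 were in repeats, beside 75.4% and 1.56% of all common peaks. Short reads can fall on several copies of a repeat, so these heights are uncertain.

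Regions of the Y chromosome were mostly not common. The 6 WT libraries each held 128 to 298 peaks on it that overlapped no common peak, and the 6 stabilized libraries 14 to 37. The labels give all mice as male, and RNA of the Y-linked gene Ddx3y was at 15.7 to 37.7 TPM and Xist at no more than 0.0255 TPM in all 12 GFP-positive libraries. All 3 WT groups stood above all 3 stabilized groups in this count, no test was made, and the peak lists give no read depth on this chromosome.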
